A study of Mus musculus with 2 samples.

Results

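Heat shock proteins and their DNAJ partners form the network that folds new proteins, keeps stressed proteins soluble and hands damaged ones to degradation. In the table of read counts per gene, 82 of 45777 genes belonged to it. They were taken by name: protein-coding genes called Hspa, Hspb, Hspd, Hspe, Hsph or Hsp90, numbered members of the Dnaja, Dnajb and Dnajc families, and Hsf1, Hsf2, Bag1, Bag2, Bag3, Ahsa1, Stip1 and Chordc1. The naming rule uses no measured value, although it was set with earlier results of these data known. The libraries came from RNA of whole mouse kidneys. One was made from controls, the other from animals carrying a conditional knockout (CKO) of Inmt, an amine methyltransferase gene, directed at the proximal tubule. All mice ate standard chow and were untreated. The strain, age, sex, Cre driver and number of animals per library, and the alleles that the controls carried, are not given in the sources used here. Each group has 1 library, so no difference below has a replicate check and none carries a p-value.

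HSP70 proteins bind exposed hydrophobic stretches of other proteins and release them on an ATP cycle. DNAJ proteins (J proteins) start that cycle and bring the client, and exchange factors such as the BAG proteins and HSP110 end it. HSP90 takes over clients that are nearly folded, small heat shock proteins hold unfolded ones without using ATP, and the endoplasmic reticulum (ER) and mitochondria have chaperones of their own. The transcription factor HSF1 switches on the stress-inducible cytosolic members, whereas the unfolded protein response controls those of the ER. In the kidney, small heat shock proteins are known for stabilising the actin of tubule cells.

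Counted reads came to 33618076 for control and 38136616 for CKO. Inmt had 17678 control and 5283 CKO reads, 4.73-fold lower after scaling (95% counting interval 4.59 to 4.88). Read counts were scaled to CPM, a gene's reads relative to the size of its library, by TMM, a trimmed-mean method, and a gene with 1 CPM or more in either library was called expressed. Ratios are CKO over control. Log2 ratios use CPM + 0.5, which understates the ratio of low genes, while fold values are plain ratios with exact 95% intervals that cover counting error only. In the control, 1.093% of reads fell on the members (1.0895 to 1.0965, Clopper-Pearson), and in the CKO library 0.8803% did (0.87729 to 0.88322).

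Most of the expressed members were lower in the CKO library on the TMM scale, with Hspa1a, Hspa1b and Hsph1 lowest, and the small heat shock genes Hspb1 and Hspb8 stood far on the other side. In whole tissue, fewer cells of a type and less RNA per cell cannot be told apart. Of 82 members, 73 were expressed. Members were called 2-fold lower or higher by the log2 ratio of CPM + 0.5, which leaves out Hspa1l (-0.88), although its plain ratio was 2.34-fold lower. On that scale 5 were at least 2-fold lower, or 6.85%, where 1.66% of all 15129 expressed genes were. On the upper side 2 passed the limit, or 2.74%, against 10.3% of all expressed genes. The 1.66% and 10.3% pool genes of all levels, and shares split by abundance are given below. The 5 lower ones were Hspa1a, Hspa1b, Hsph1, Dnajb1 and Dnaja1, and the 2 higher ones Hspb1 and Hspb8. The median log2 ratio of the 73 members was -0.30, where that of all expressed genes was 0.01. A log2 ratio below 0 was found for 57 of 73 members, or 78.1%, against 49.3% of all expressed genes, and 16 lay above 0 (50.7% of all expressed genes did). At the 1.5-fold limit 17 members were lower (6.85% of all expressed genes were) and 3 were higher (19.3%). The counting interval lay wholly below 1 for 49 members (34.7% of all expressed genes) and wholly above 1 for 8 (36.8%).

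**Figure D1:**
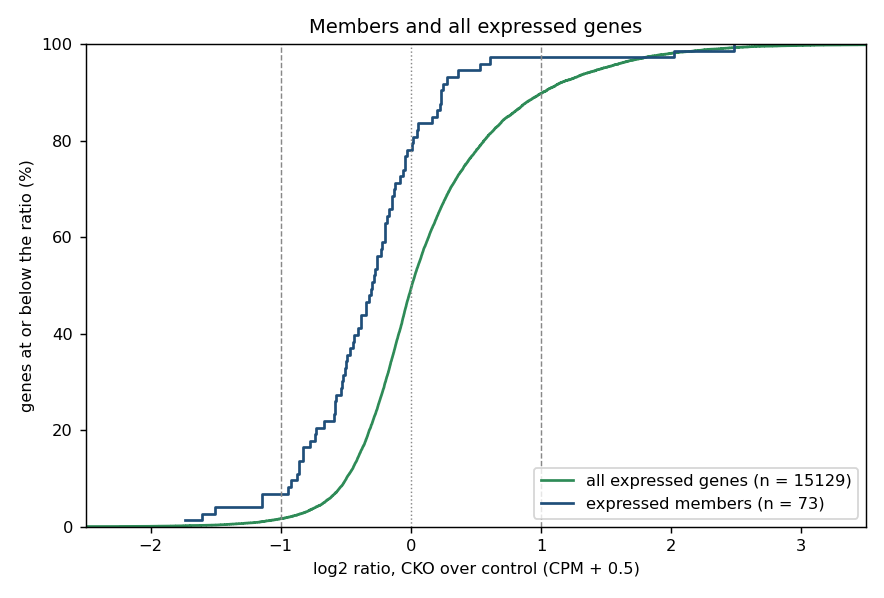
Share of genes (vertical axis, percent) at or below each log2 ratio of CKO over control (horizontal axis), for the 73 expressed members (blue) and all 15129 expressed genes (green); dotted line at 0, dashed lines at 2-fold. At a ratio of 0 the members' curve stands at 78.1% and the other at 49.3%; the last 2 steps of the members' curve are Hspb8 and Hspb1, at 2.02 and 2.49.

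These directions depend in part on how the libraries were scaled. With total counts the median of all expressed genes moved from 0.01 to 0.32, and the members' median from -0.30 to 0.02, so that 35 of 73 members stayed below 0, where 20.6% of all expressed genes did. The distance between the medians held: it was -0.30 with TMM, DESeq2 size factors and total counts, -0.31 with trimmed totals, -0.26 with the authors' TPM (a level per length scaled to a fixed sum) and -0.23 with their FPKM, a level per length. Over these 6 scalings, 57 of 73 members lay below the median of all expressed genes in every scaling that gave a value, 12 lay above it and 4 changed side. In absolute terms 30 stayed below 0, 14 stayed above 0 and 29 changed sign. The part that abundance takes in this was examined with a split at a mean of 100 CPM, set after the values were seen. Of the 19 members at or above it, 18 were below 0 and the median was -0.58, against 80.4% and -0.30 for the 1934 expressed genes there. Of the 54 below it, 39 were below 0 and the median was -0.21, against 44.7% and 0.06 for 13195 genes. The 2-fold calls also differed with abundance. Among the 19 abundant members, 3 passed 2-fold downward (4.24% of expressed genes at that level) and 0 upward (1.34%). Among the 54 under 100 CPM, 2 passed 2-fold downward (1.28% of expressed genes at that level) and 2 upward (11.6%).

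**Figure D2:**
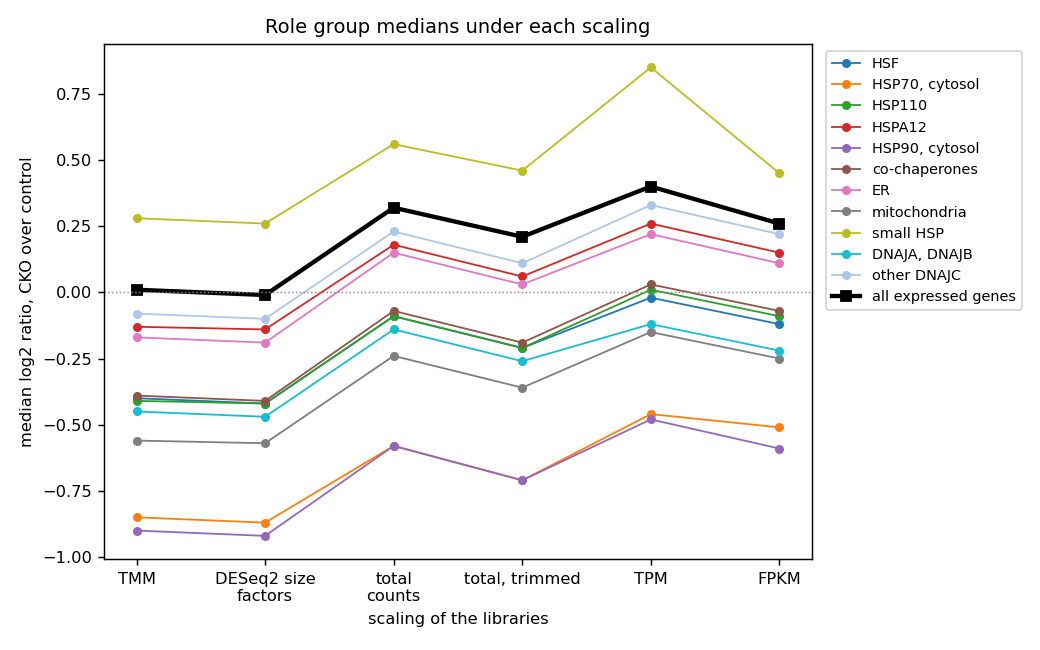
Median log2 ratio of CKO over control (vertical axis) of each role group of members and of all expressed genes (black squares) under 6 scalings of the libraries (horizontal axis; trimmed total leaves out the 50 most abundant and the mitochondrial genes). The other lines shift together by up to about the shift of the black line, from 0.01 with TMM to 0.40 with TPM. The small heat shock median goes from 0.28 (5 genes) with TMM to 0.85 (6 genes) with TPM, where Hspb2 (12 and 26 reads) enters the set. Hspb7, the median gene with TMM, goes from 0.28 to 0.62. Cytosolic HSP70 and HSP90 stay lowest, and the small heat shock proteins are the group that stays above the black line.

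The heat shock factors themselves were low and slightly lower in the CKO library. Hsf1, the main activator of the response, had 936 and 910 reads in the control and CKO libraries, or 31.1 and 21.4 CPM, a 1.46-fold lower level (1.33 to 1.60). Its log2 ratio ran from -0.55 to -0.11 over the scalings. Hsf2, a related factor, had 411 and 477 reads and was 1.22-fold lower (1.07 to 1.39), with a sign that turned positive with total counts and TPM. Per length, Hsf1 was at 10.6 FPKM in control and 9.08 in CKO kidney, and Hsf2 at 3.34 and 3.26. These transcript levels do not report the activity of the factors, which is set largely at the protein.

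Among cytosolic HSP70 genes, the stress-inducible pair was the lowest of all members. Hspa1a (chromosome 17, 34969359 to 34972156, GRCm38) had 3719 control and 1566 CKO reads, or 123.5 and 36.8 CPM, a 3.36-fold lower level (3.17 to 3.57). Hspa1b (chromosome 17, 34956429 to 34959238) had 5253 and 2423 reads, or 174.5 and 56.9 CPM, 3.07-fold lower (2.92 to 3.22). They ranked 33 and 45 from the lowest of 15129 expressed genes. Their longest open reading frames were identical at 1918 of 1929 aligned bases, or 99.4%, so the split of reads between them is uncertain. Summed, they went from 8972 to 3989 reads, 3.18-fold lower (3.06 to 3.30).

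Hspa8, the constitutive HSP70 (chromosome 9, 40801276 to 40805202), was the most abundant member per length, at 829 FPKM in control and 584 in CKO kidney. It had 66507 and 52840 reads and was 1.78-fold lower (1.76 to 1.80). The small nucleolar RNA genes Snord14c, Snord14d and Snord14e lie inside Hspa8. They had 30, 47 and 36 reads in the control and 15, 18 and 14 in the CKO library, too few to move the count of Hspa8. Within each library, the inducible pair stood at 0.101 of the Hspa8 level by FPKM in control and at 0.0562 in CKO kidney. The CKO ratio of reads was 0.56 of the control ratio (0.538 to 0.582), a quantity free of the scaling between libraries. The other cytosolic HSP70 genes were minor: Hspa14, a partner of the ribosome-bound J protein Dnajc2, was at 23.6 and 23.7 CPM, and Hspa2, best known from sperm development, at 7.34 and 8.29 CPM. Hspa1l, a testis-enriched member next to Hspa1a, had 58 and 35 reads and was 2.34-fold lower (1.52 to 3.67), with a log2 ratio of -0.88.

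HSP110 proteins release nucleotide from HSP70 and help it to dissolve aggregates. The inducible Hsph1 (chromosome 5, 149616843 to 149636498) had 7712 control and 3822 CKO reads, or 256.1 and 89.8 CPM, 2.85-fold lower (2.75 to 2.97). It ranked 54 from the lowest of all expressed genes. Hspa4 and Hspa4l, its less inducible relatives, were 1.33-fold (1.28 to 1.38) and 1.27-fold (1.19 to 1.36) lower, and both turned slightly positive with TPM. By FPKM, Hsph1 went from 1.81 times the level of Hspa4 in the control to 0.852 times in the CKO library. The HSP70-related genes Hspa12a and Hspa12b differed little, at -0.03 and -0.22 (log2).

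Both cytosolic HSP90 genes were lower, and by nearly the same factor. Hsp90ab1, the constitutive form, had 48116 and 37523 reads in the control and CKO libraries and was 1.81-fold lower (1.79 to 1.84), at 503 FPKM against 345. Hsp90aa1, the inducible form, had 16387 and 12024 reads and was 1.93-fold lower (1.88 to 1.97), at 150.8 against 97.4 FPKM. The Hsp90aa1 to Hsp90ab1 ratio by FPKM was 0.30 in control and 0.282 in CKO kidney. The log2 ratio of Hsp90aa1, -0.95, was the nearest to the 2-fold limit among members short of it, followed by Hspd1 at -0.92 and Hspa1l at -0.88. Dnaja1 and Dnajb1, both at -1.14, were the nearest past it, then Hsph1 at -1.51.

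**Figure D3:**
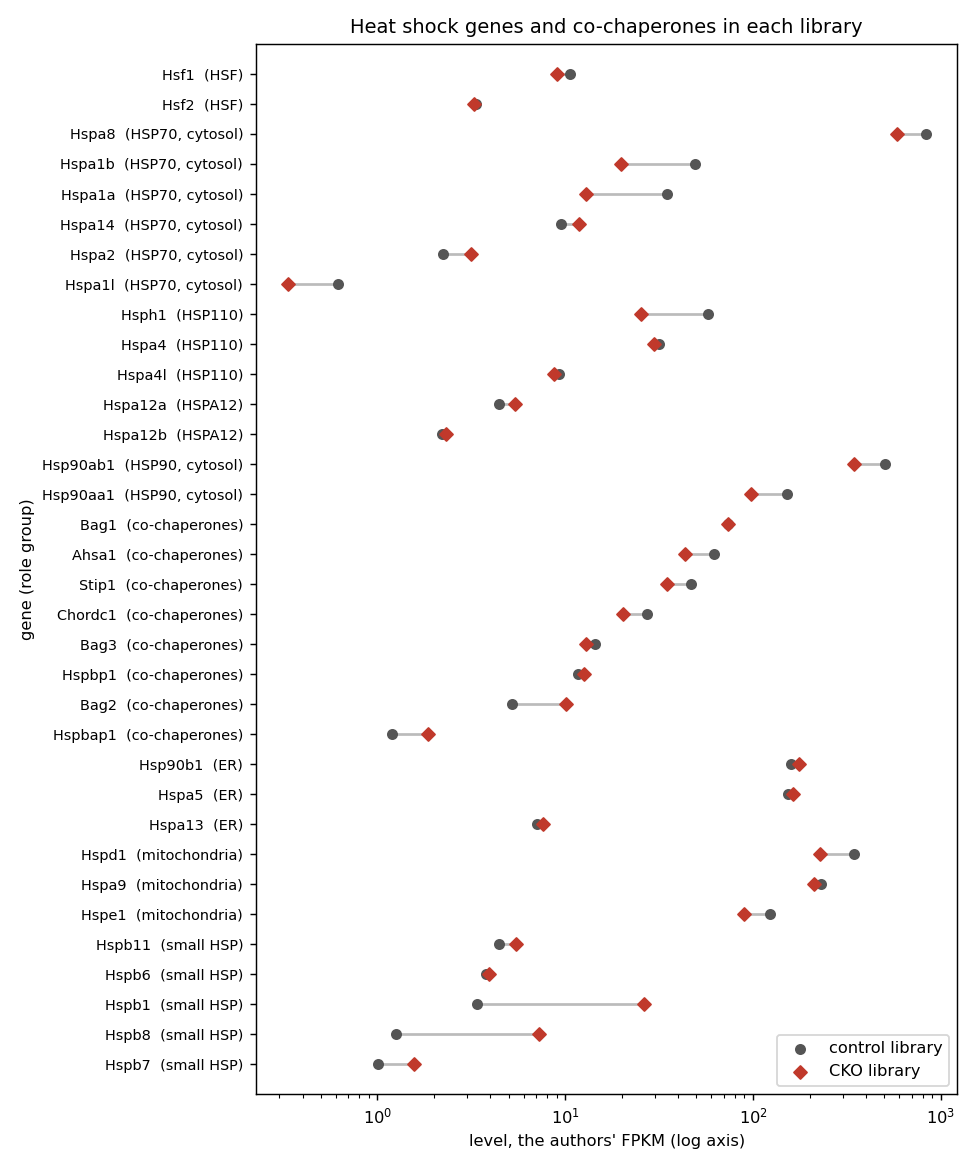
Level of each expressed member outside the DNAJ families in the control (grey circles) and CKO (red diamonds) libraries, by the authors' FPKM on a log axis; genes are ordered by role group and level. Hspa8, Hsp90ab1 and Hspd1 lead in both libraries, the red points of Hspa1a, Hspa1b and Hsph1 lie well to the left of the grey ones, and those of Hspb1 and Hspb8 far to the right.

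The co-chaperones split. Those that serve HSP90 were lower: Ahsa1, an activator of its ATPase, was 1.78-fold lower (1.69 to 1.88), with 3136 and 2491 reads in the control and CKO libraries. Chordc1, another HSP90 partner, was 1.68-fold lower (1.58 to 1.78) with 2295 and 1937 reads, and Stip1, which passes clients from HSP70 to HSP90, 1.66-fold (1.59 to 1.74) with 3861 and 3287. These 3 genes stayed below 0 under all 6 scalings. The BAG exchange factors did not move together. Bag3, a heat-inducible partner of Hspb8 in autophagy, was 1.39-fold lower (1.29 to 1.5), with 1427 and 1453 reads. Bag1, the most abundant co-chaperone at 73.3 and 73.5 FPKM, was 1.24-fold lower by CPM and near 0 or above by total counts, FPKM and TPM. Bag2, which restrains the ubiquitin ligase CHIP, was 1.55-fold higher (1.36 to 1.76) with 362 and 791 reads, the highest ratio among members short of 2-fold, ahead of Dnajc27 and Dnajb5. Hspbp1, an HSP70 exchange factor, and Hspbap1, named for binding Hspb1, were at -0.20 and 0.22 (log2), and the interval of Hspbap1 included 1.

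Among the J proteins of cytosol and nucleus, classes A and B, 8 of 12 were expressed, 2 were at least 2-fold lower (1.66% of all expressed genes were) and 7 had a log2 ratio below 0 (49.3%). Dnaja1 (chromosome 4, 40722468 to 40734965), a main partner of Hspa8, had 18024 control and 11547 CKO reads, or 599 and 271 CPM, 2.21-fold lower (2.16 to 2.26). Dnajb1 (chromosome 8, 83608175 to 83612653), the stress-inducible partner of the inducible HSP70s, had 2449 and 1556 reads, or 81.3 and 36.5 CPM, 2.23-fold lower (2.09 to 2.37). Both calls rest on the scaling: with total counts, trimmed totals, TPM or FPKM both were short of 2-fold, with log2 ratios from -0.95 to -0.72. Dnaja4 was 1.83-fold lower (1.70 to 1.98). Close relatives moved less: Dnaja2 was 1.14-fold lower (1.10 to 1.18) and Dnajb4 1.2-fold (1.11 to 1.30), and both were above 0 with total counts. By FPKM, Dnaja1 was at 3.13 times the level of Dnaja2 in control and 1.62 times in CKO kidney. Dnajb6, a suppressor of polyglutamine aggregation, was 1.31-fold lower (1.25 to 1.37). Dnajb2 was at -0.52 (log2). Dnajb5 was the exception, 1.31-fold higher (1.10 to 1.56) on 203 and 375 reads.

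The mitochondrial members were all below 0 with TMM (10 of 10), where 49.3% of all expressed genes were, with a median log2 ratio of -0.56. Hspd1 and Hspe1 encode the folding chamber of the matrix and its lid. Hspd1 (chromosome 1, 55077833 to 55088243) had 30851 control and 23068 CKO reads, 1.89-fold lower (1.86 to 1.92). Hspe1 (chromosome 1, 55088148 to 55091317) had 3608 and 2967 reads, 1.72-fold lower (1.64 to 1.81). The genes lie head to head and share 96 bases. Hspa9, the matrix HSP70 that also pulls in imported proteins, was 1.36-fold lower (1.34 to 1.38) at 229 and 210.0 FPKM. By FPKM, Hspd1 stood at 1.51 times Hspa9 in control and 1.08 times in CKO kidney. Dnajc30 was 1.61-fold lower (1.47 to 1.76), Dnaja3, a matrix J protein, 1.5-fold (1.44 to 1.56), and Dnajc19, of the import motor, 1.49-fold (1.41 to 1.59). Dnajc30 overlaps Bud23 and Dnajc19 overlaps Fxr1, so the split of their reads is uncertain. Dnajc11 was at -0.54 and Dnajc4 at -0.04, and the latter, Dnajc15 and Dnajc28 turned positive with total counts.

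The log2 ratios of the 13 ER members ran from -0.44 (Dnajb11) to 0.20 (Dnajc10), with a median of -0.17. Of these, 12 lay below the median of all expressed genes under each of the 6 scalings, by a distance of -0.15 to -0.18 for the group's median. None (0) passed 2-fold, where 1.66% of all expressed genes did downward and 10.3% upward. Hspa5, the HSP70 of the ER known as BiP, had 14894 and 17965 reads in the control and CKO libraries and was 1.17-fold lower (1.15 to 1.2). Hsp90b1, the ER form of HSP90, had 16746 and 21056 reads and was 1.13-fold lower (1.10 to 1.15). Both were above 0 with total counts, TPM and FPKM, and the group's median was 0.22 with TPM. Dnajc3, an ER J protein of the unfolded protein response, was 1.27-fold lower (1.22 to 1.32), and Dnajb9, another of its targets, had an interval that included 1. Dnajc10, a disulfide reductase, was the only ER member above 0 with TMM, 1.15-fold higher (1.09 to 1.21) with 2166 and 3521 reads. Hspa13, Dnajb12, Dnajb14, Dnajc1, Dnajc16, Dnajc18 and Dnajc25 lay between -0.38 and -0.06 (log2). Against their cytosolic counterparts the ER genes stood higher in CKO kidney within the library: by FPKM, Hspa5 was at 0.185 of Hspa8 in control and 0.279 in CKO kidney, and Hsp90b1 at 0.316 and 0.51 of Hsp90ab1. In the summed TPM of all 82 members, the ER group took 12.6% in control and 16.9% in CKO kidney, while cytosolic HSP70 took 23.4% and 19.9% and cytosolic HSP90 16.6% and 14%.

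The small heat shock proteins held both large increases. Hspb1 (chromosome 5, 135887919 to 135889563), the actin-stabilising HSP25 of the mouse, had 117 control and 1025 CKO reads. Its level went from 3.89 to 24.1 CPM, 6.20-fold higher (5.11 to 7.57), and from 3.39 to 26.2 FPKM. Hspb8 (chromosome 5, 116408491 to 116422864), which works with Bag3, had 88 and 571 reads, or 2.92 and 13.4 CPM, 4.59-fold higher (3.66 to 5.81). They ranked 115 and 282 from the highest of all expressed genes, and their log2 ratios stayed between 1.65 and 2.97 under all alternatives. The other 3 expressed members were near the rest of the genes: Hspb7, known from heart muscle, at 0.28, Hspb11, a protein of ciliary transport, at 0.04 and Hspb6, known from smooth muscle, at -0.20 (log2). The intervals of all 3 included 1. Bag3, the partner of Hspb8, was not among the higher genes, at -0.47. Hspb1 was far less abundant in both libraries than Hspa8, at 0.00409 of its FPKM in control and 0.0448 in CKO kidney.

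The other class C J proteins had 14 of 16 members expressed, none (0) past 2-fold in either direction (1.66% of all expressed genes were lower and 10.3% higher), and a median of -0.08. Dnajc13, which works on endosomes, was lowest at 1.51-fold lower (1.47 to 1.55) with 10119 and 9470 reads. Dnajc22 was 1.5-fold lower (1.42 to 1.58), and Dnajc12, the most abundant of the group per length at 57.5 and 50.3 FPKM and a chaperone of aromatic amino acid hydroxylases, 1.42-fold (1.35 to 1.5). Dnajc2, the ribosome-bound J protein, and Dnajc21, a ribosome biogenesis factor, were at -0.50 and -0.49. Dnajc6 was at -0.32. Dnajc7, which shares 9058 bases with Cnp, was at -0.12, and Cnp itself at 1.13. Dnajc27 was highest, 1.5-fold higher (1.22 to 1.85) on 138 and 292 reads. The splicing-related Dnajc8 was 1.19-fold higher (1.11 to 1.28) and Dnajc9, a histone chaperone, 1.18-fold (1.04 to 1.33). Dnajc5, Dnajc14, Dnajc17 and Dnajc24 had intervals that included 1.

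**Figure D4:**
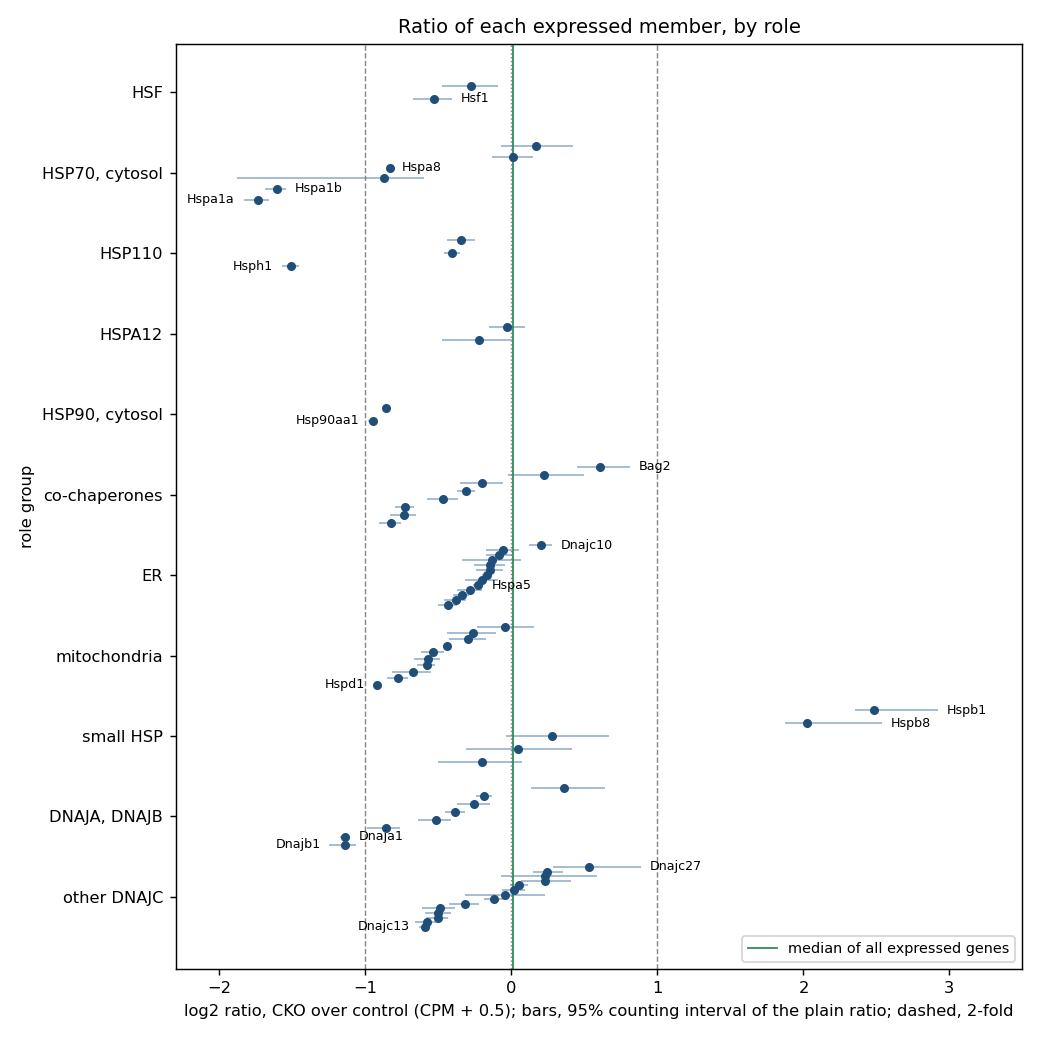
Log2 ratio of CKO over control (horizontal axis) of each of the 73 expressed members, in rows by role group; bars are 95% counting intervals of the plain ratio, dashed lines mark 2-fold and the green line the median of all expressed genes, 0.01. The 5 genes left of the lower limit belong to cytosolic HSP70, HSP110 and the DNAJA and DNAJB group, the 2 right of the upper limit to the small heat shock proteins, and the ER group lies in a narrow band from -0.44 to 0.20.

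Of the 9 members under 1 CPM, 5 had no read in either library: Dnajb13, Dnajb8, Dnajc5b, Dnajc5g and Hspb3. A count of 0 allows up to 3 reads, or 0.0996 CPM in control and 0.0705 in CKO kidney. Dnajb7 had 0 and 2 reads, Dnajb3 4 and 9, Hspb9 2 and 4, and Hspb2 12 and 26. Dnajb3 lies inside the Ugt1a cluster and Hspb2 overlaps Cryab, so even these few reads are uncertain in origin. In all, 16 members overlapped another expressed gene, and without them 4 members passed 2-fold downward and 2 upward. Dnaja1 was the call that this removed, on account of the lncRNA gene Gm6297, which had 23 and 50 reads.

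Promoter sequence was set beside these ratios. The windows searched run from 250 bases before to 50 after each start in the RefSeq promoter table for GRCm38, which held 67 of the 82 members. The heat shock element, the HSF1 motif, was searched as GAA, any 2 bases, TTC, any 2 bases and GAA on both strands, and overlapping matches were merged. It was found for 5 of those 67 members, and for 179 of 27025 genes in the table, or 0.662%. Hsph1 was the only member past 2-fold with a match. Hspa1a, Hspa1b, Dnajb1, Dnaja1, Hspb1 and Hspb8 either lacked a match or were not among the 67 searched. The ER stress element, a motif of the unfolded protein response, was searched as CCAAT, any 9 bases and CCACG on both strands. It was found for 3 of the 67 members and for 37 of all genes, or 0.137%. These sequences are shown because they are the matches among cytosolic and mitochondrial members on one side and ER members on the other. All are written 5′ to 3′ on the strand of the named gene, with the matched bases in capitals. Where the match lay in an annotated exon, only 30 bases are given.
Hspe1, also the promoter of Hspd1 read on the other strand (chr1:55088025-55088116, plus strand): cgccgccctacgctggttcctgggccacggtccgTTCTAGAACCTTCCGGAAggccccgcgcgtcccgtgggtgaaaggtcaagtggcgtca
Hsph1 (chr5:149636279-149636308, minus strand): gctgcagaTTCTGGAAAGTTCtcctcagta
Chordc1 (chr9:18292260-18292289, plus strand): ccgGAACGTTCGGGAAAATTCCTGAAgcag
Dnajb6 (chr5:29735844-29735873, plus strand): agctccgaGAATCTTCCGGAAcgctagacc
Hspa5 (chr2:34772020-34772049, plus strand): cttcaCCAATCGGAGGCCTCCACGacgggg
Hsp90b1, distal match (chr10:86705598-86705694, minus strand): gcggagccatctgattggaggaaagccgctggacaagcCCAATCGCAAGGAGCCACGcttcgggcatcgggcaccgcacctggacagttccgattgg
Hsp90b1, proximal match (chr10:86705510-86705591, minus strand): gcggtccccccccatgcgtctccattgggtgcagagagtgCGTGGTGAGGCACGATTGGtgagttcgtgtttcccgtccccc
Dnajc3 (chr14:118937787-118937885, plus strand): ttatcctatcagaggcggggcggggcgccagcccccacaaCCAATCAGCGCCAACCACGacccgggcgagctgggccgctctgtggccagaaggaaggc
Hspe1, Hsph1, Chordc1 and Dnajb6 show the heat shock element, and Hspa5, Hsp90b1 and Dnajc3 the ER stress element.

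The 5 members with the heat shock element were all below 0 (log2), where 78.1% of all expressed members were. Hsph1 was at -1.51, Hspd1 at -0.92, Hspe1 at -0.78, Chordc1 at -0.74 and Dnajb6 at -0.39. All 5 stayed below 0 under the 6 scalings. In the window that Hspd1 and Hspe1 share, the element formed a run of 18 bases with a match on each strand. It ended 72 bases before the start of Hspe1 and lay within the annotated span of Hspd1, outside its annotated exons. In Chordc1 3 matches overlapped in 23 bases across the start site, and in Hsph1 the match lay after it. The 3 members with the ER stress element were at -0.34 (Dnajc3), -0.23 (Hspa5) and -0.17 (Hsp90b1), and Hsp90b1 held it on each strand. By comparison, 62 other expressed genes with the heat shock element had a median of 0.06, and 28 of them were below 0 (49.3% of all expressed genes). Of the 62, 1 passed 2-fold downward (1.66% of all expressed genes) and 4 passed it upward (10.3%). The 15 other expressed genes with the ER stress element had a median of -0.25. Of these, 10 were below 0, 2 passed 2-fold downward and 0 passed it upward. A match is a string of letters, not a measured site.

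Other chaperone genes, in lists outside the 82 members, were counted in the same way. Of 24 further HSP70 and HSP90 cofactors and HSF1-linked genes, 17 were below 0 (49.3% of all expressed genes were), none (0) was at least 2-fold lower (1.66%), 2 were at least 2-fold higher (10.3%) and the median was -0.23. The HSP90 immunophilin gene Fkbp5 was 2.0-fold lower (1.90 to 2.10) and just short of the limit on the log2 scale, at -0.99. Fkbp4 was 1.72-fold lower (1.67 to 1.77), and Ubb, the most abundant per length, 1.60-fold (1.58 to 1.62). The 2 higher ones were Clu, a secreted chaperone and known marker of injured tubules, at 8.50-fold (8.14 to 8.89) with 2178 and 26193 reads, and Cryab, a small heat shock protein of the crystallin branch, at 2.28-fold (2.10 to 2.49) with 728 and 2351.

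The cytosolic chaperonin TRiC and prefoldin had 14 of 14 genes below 0, where 49.3% of all expressed genes were. None (0) was past 2-fold, where 1.66% of all expressed genes were lower and 10.3% higher. The median was -0.18, with Pfdn2 (-0.61) and Cct6a (-0.35) lowest and Pfdn4 (-0.11) and Cct4 (-0.04) highest. Pfdn5, the most abundant there, was at 143.9 and 155.7 FPKM. The Cct genes, Tcp1 and Pfdn5 had a mean of 100 CPM or more, where 80.4% of expressed genes were below 0, with a median of -0.30. In the ER folding and unfolded protein response list, 16 of 20 genes were below 0 (49.3% of all expressed genes were). None (0) passed 2-fold, downward (1.66%) or upward (10.3%). The median was -0.24, with Sil1 (-0.55) and Edem1 (-0.52) lowest, Pdia4 (0.09) and Xbp1 (0.16) highest and Calr, the most abundant, at -0.25. These directions hold on the TMM scale: the summed TPM of the chaperonin and prefoldin list was higher in CKO kidney, at 1718 against 1504, and so was that of the ER folding list, at 2868 against 2504. Mitochondrial protein quality control genes had 12 of 13 below 0 (49.3% of all expressed genes were) and a median of -0.39. Clpx, a matrix unfoldase, was 2.12-fold lower (2.04 to 2.21), Trap1, the mitochondrial HSP90, 1.42-fold (1.38 to 1.47), and Yme1l1 and Htra2 were highest at -0.10 and 0.24.

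Markers of the kidney were present: all listed genes of the proximal tubule (10), thick ascending limb (4), distal tubule (4), collecting duct (5) and podocyte (4) were expressed. Several cell type and state lists differed between the same libraries. Of 10 proximal tubule markers, 9 were below 0 (49.3% of all expressed genes were) and 3 at least 2-fold lower (1.66%). Their median was -0.68. All 10 had a mean of 100 CPM or more, where 80.4% of expressed genes were below 0 and 4.24% at least 2-fold lower. The summed level of these markers was 26700 CPM in control and 16060 in CKO kidney, 1.66-fold lower. Cytosolic HSP70 summed to 2540 and 1367 CPM, 1.86-fold lower, cytosolic HSP90 was 1.84-fold lower and the mitochondrial members 1.58-fold. All 5 injured tubule markers were at least 2-fold higher (10.3% of all expressed genes were), summing to 378 and 4647 CPM. Macrophage and monocyte markers had 9 of 10 at least 2-fold higher and summed to 75.8 and 358 CPM. The medians of fibroblast (1.71), handling and immediate early (1.80) and smooth muscle and pericyte markers (0.76) were also above 0. Thick ascending limb (0.44), collecting duct (0.21), podocyte (0.01), endothelial (-0.03) and distal tubule (-0.16) markers were nearer to it. Of 8 T, B and NK cell markers, 4 were expressed (median 1.5). These 4, Cd3g, Cd8a, Lck and Klrk1, reached 1 CPM only in the CKO library, which fixed the sign of that median. Under the minimum, Cd3e had 6 and 31 reads, Nkg7 4 and 26, Ms4a1 6 and 0 and Cd79a 6 and 3. The multiciliated markers split: Foxj1 was at 3.04, Ccdc39 at 0.84 and Dnah5 at -0.38. Foxj1 reached 1 CPM only in the CKO library, and Tekt1 had no read in either.

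Muscle markers are given beside the small heat shock proteins, several of which are abundant in muscle. Of 5 striated muscle markers, Ckm, Mb, Myh4 and Tnnt3 had no read in either library and Acta1 had 0 and 6, and none was expressed. The smooth muscle and pericyte markers summed to 124.2 and 216.0 CPM, 1.74-fold higher, with single markers from 1.065-fold (Myh11) to 2.92-fold (Tagln) higher. Of these 6 markers, 2 were at least 2-fold higher (10.3% of all expressed genes were) and none was at 0. Of the adipocyte markers, Adipoq and Plin1 had no read in either library, Cidec had 6 and 17 reads and Fabp4 was at 0.25. Of the neutrophil markers, S100a8 and Ly6g were at 0 in both, S100a9 had 5 and 18 reads and Csf3r had 22 and 182. The part of cell composition, or of handling of the tissue, in the members' ratios was not tested.

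**Figure D5:**
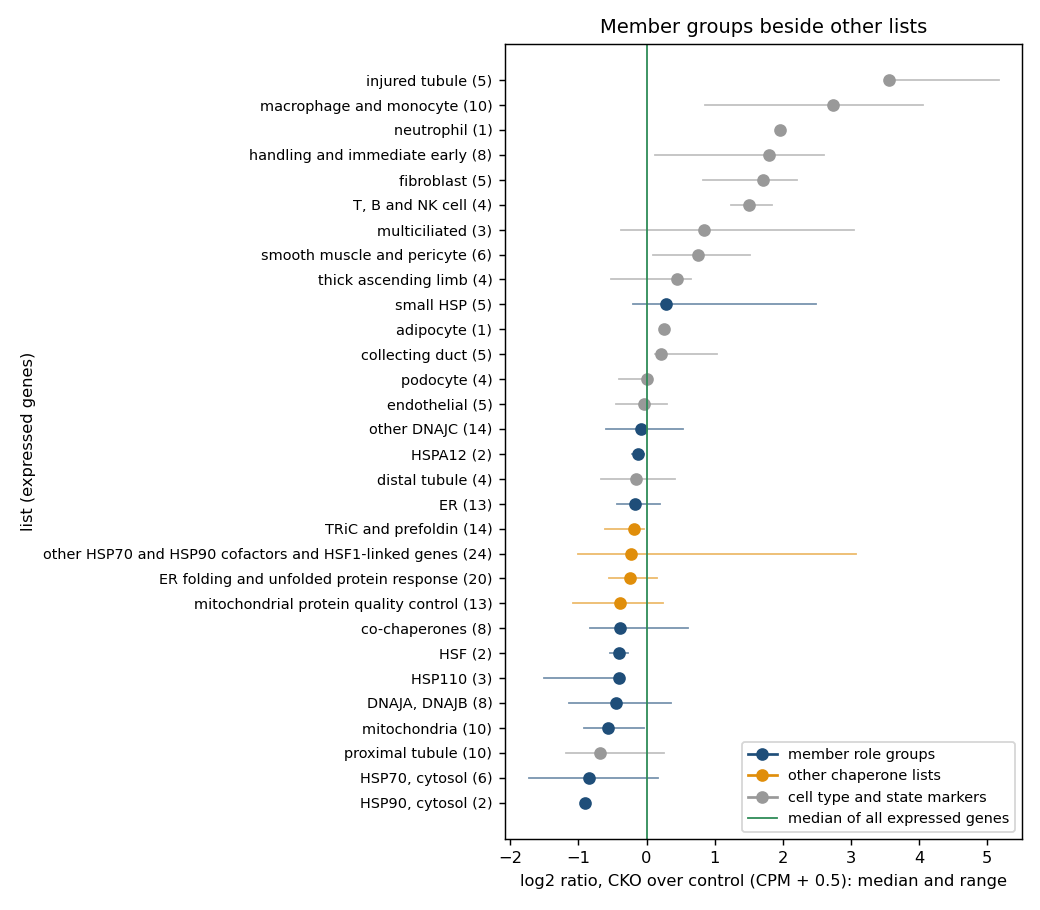
Median (points) and range (lines) of the log2 ratio of CKO over control over the expressed genes of each list, with the number of expressed genes in parentheses: role groups of members in blue, other chaperone lists in orange, cell type and state markers in grey; the green line is the median of all expressed genes. Cytosolic HSP90 and HSP70 lie below the proximal tubule markers at -0.68, most other chaperone groups lie between these and the green line, and the small heat shock proteins lie above it.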

How the data were processed

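The authors deposited 1 table with read counts, FPKM and TPM per gene and a second table of normalized signal, per the file headers. STAR 2.7.3a, Cufflinks 2.2.1, HTSeq, edgeR, DESeq2, FastQC and mm10 stand in the submitters' processing notes without role or order. A stranded kit was used, per the labels' protocols; whether counting used strand is not given in the sources used here. The deposited read counts were not normalized, and the deposited FPKM and TPM values are scaled per length. The deposited signal values, for 19550 genes with a read in both libraries, were the counts divided by 30.1 (control) or 42.6 (CKO), which matched the effective sizes below to a relative difference of at most 0.000445.

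Counts were scaled by TMM (edgeR 4.0.16, R 4.3.3) to effective sizes of 30.1 and 42.6 Mreads. For each ratio, the Clopper-Pearson interval of CKO reads among the gene's reads was converted, which covers counting error only. Everything else was run in Python 3.11.15 (pandas 2.3.3, scipy 1.17.1). Size factors from DESeq2 1.42.0 were an alternative. Intervals of ratios of ratios are Wald intervals of log counts. Named were all members past 2-fold, the most abundant, highest and lowest of each role group, those next to the 2-fold limit, members under the minimum, those the membership rule lists by symbol, and the most abundant and extreme genes of the other chaperone lists. Others, and the pairs compared within a library, were named after their values were seen. The members and lists were chosen with earlier results of these data known.

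In a simulation of CKO against control with 45777 genes, 100 of 100 genes made 4-fold higher and 100 of 100 made 4-fold lower passed 2-fold in the right direction, and none (0) of 14601 unchanged genes passed it. The simulated libraries shared mean levels and held counting noise only, without variation between animals. The simulation therefore checks the calculation and gives no rate of false calls for the real libraries. RefSeq coordinates and promoters are those of GRCm38, the assembly that mm10 names; open reading frames are those of GENCODE transcripts of the same assembly. Protein sequence features were not analysed here. The values of 1 gene that the naming rule covers are not reported here.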

Additional observations from a re-analysis of the deposited data

Results flagged for a closer look

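The pseudogene Hsp25-ps1, a copy of Hspb1 on chromosome 13 (45078370 to 45079184) outside the protein-coding members, had a level above that of the control: 21 reads, or 0.697 CPM, in the control and 108 reads, or 2.54 CPM, in the CKO library. That is 3.64-fold higher (2.26 to 6.11), in the same direction as the 6.20-fold ratio of Hspb1. Whether its reads come from Hspb1 was not tested.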

How the results depend on the processing

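With 1 library per group, none could be left out. No paired analysis was possible because each group has 1 library. The 2 members at least 2-fold higher became 4 with TPM, and the count kept to 2 or 3 under the other alternatives. The 5 at least 2-fold lower became 3 with total counts, with trimmed totals, with TPM and with FPKM, and 17 at the 1.5-fold limit. A pseudocount of 0.1 CPM made it 6, Hspa1l being added. Hspa1a, Hspa1b and Hsph1 passed 2-fold under every alternative, while Dnaja1 and Dnajb1 fell short under those 4 scalings. The members' median of -0.30 became 0.02 with total counts, -0.10 with trimmed totals, 0.14 with TPM and 0.03 with FPKM. Of all expressed genes, 1552 at least 2-fold higher became 2391 with total counts, 825 with a pseudocount of 2 CPM, 573 with a minimum of 10 CPM, 2613 with TPM and 2920 at 1.5-fold. The 251 at least 2-fold lower became 102 with total counts, 158 with trimmed totals, 167 with a pseudocount of 2 CPM, 139 with TPM, 102 with FPKM and 1037 at 1.5-fold. The cause of these shifts was not tested, apart from the lower limit of 1.5-fold. Of 720 single member values under the alternatives, 461 stayed within the counting interval and 259 moved beyond it, and no called member changed sign. Leaving out members that overlap an expressed gene and summing Hspa1a with Hspa1b were chosen after seeing the data. Depth limits the members with few reads: the interval of Hspa1l ran from 1.52-fold to 3.67-fold lower.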
